A study of Mus musculus with 6 samples.

Results

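The 10 genes described here were listed as cell cycle inhibitors, and they were followed in mouse CD4 T cells made to express Blimp-1. Whether each of them slows division in these cells was not tested. They are the cyclin-dependent kinase (CDK) inhibitor genes Cdkn1a, Cdkn1b, Cdkn2c and Cdkn2d, the antiproliferative genes Btg1 and Btg2, the growth arrest and DNA damage genes Gadd45a, Gadd45b and Gadd45g, and Ccng1, which encodes cyclin G1. They were taken by symbol from the deposited table, and all 10 were found among its 22584 genes. The choice of members used no measured value, but it was made with earlier results of these data known.

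The 6 libraries came from CD4 T cells of C57/BL6 wild-type mice, 3 with Blimp-1 and 3 with the empty vector. In the Blimp-1 group the cells carried a retrovirus, MigR1, into which a Blimp-1 cDNA had been placed. Blimp-1 is a repressor of transcription encoded by Prdm1. In the other group the cells carried MigR1 with no insert. Cells of both groups were sorted as naive, activated for 36 hours on plate-bound antibodies to CD3 and CD28 while IL-4 and IFN-gamma were blocked (the Th0 condition), transduced, kept for 2 days and sorted for the vector's GFP, so that only transduced cells were sequenced. Another label gives 3 days of activation. Blimp-1 was thus driven by a viral vector in cells that had already been activated. The labels speak of independent biological replicates without saying what a replicate number marks, so the p-values measure the spread between these libraries.

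Cells leave quiescence when cyclins activate CDKs, which inactivate the retinoblastoma protein and release the genes of S phase. CDK inhibitors of the Cip/Kip family (Cdkn1a, Cdkn1b) bind cyclin-CDK complexes, and those of the INK4 family (Cdkn2c, Cdkn2d) bind CDK4 and CDK6 in place of the D-type cyclins. Btg1 and Btg2 bring the CCR4-NOT deadenylase to mRNAs and help to keep resting T cells quiescent. Gadd45 proteins bind the kinase MEKK4 upstream of p38 and also PCNA and CDK1. Cdkn1a, Btg2, Gadd45a and Ccng1 are known targets of p53. Blimp-1 itself is known for ending proliferation in B cells that become plasma cells and for restraining T cell expansion.

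The values were taken to be FPKM, which scale reads to transcript length and library size and therefore show shares of the RNA pool. Fewer cells with a transcript and less of it per cell cannot be told apart. Estimated depth was 33.5 to 45.8 M reads in the Blimp-1 libraries and 17.1 to 38.2 M reads in the empty vector libraries. Prdm1 was at 9.91, 12.8 and 9.45 FPKM in Blimp-1 replicates 1 to 3, against 0.996, 2.03 and 1.38 FPKM with the empty vector, a log2 fold change of 2.26 (SE 0.19). Its limma adjusted p was 0.0565, and 0.00499 with the replicate number as a block. Reads from the vector's cDNA and from the cells' own Prdm1 cannot be told apart. The 6 T cell markers summed to 1650 to 1827 FPKM with Blimp-1 and to 1638 to 1960 FPKM with the empty vector, while the B cell and myeloid markers summed to 5.72 FPKM or less in each library. The 4 NK cell markers summed to 13.7 to 35.3 FPKM with Blimp-1 and 3.34 to 28.4 FPKM with the empty vector, with Ncr1 and Klrb1c below 1 FPKM in each library. The CD8 markers summed to 7.94 to 10.97 FPKM with Blimp-1 and 7.18 to 10.4 FPKM with the empty vector, and the erythroid markers to 0.304 to 1.61 FPKM with Blimp-1 and 1.24 to 10.1 FPKM with the empty vector. The part of such cells in the results was not tested. Empty vector replicate 3 stood apart on the first principal component (52.7% of the variance), at 33.7 against -22.8 to 12.5 for the other libraries. Same-numbered libraries deviated together, with correlations of 0.79, 0.81 and 0.70 over genes, and were treated as pairs in a second fit.

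The members differed in how they stood between the vectors. Ccng1, Btg1 and Cdkn1a had higher values with Blimp-1 in 3 of 3 pairs, Gadd45g had lower values in 3 of 3 pairs, and the other 6 members had mixed signs. Moving the same way in 3 pairs was common in these data: 45.7% of the 10854 genes tested did so, against 4 of the 10 members. Ccng1 was the only member whose values did not overlap between the vectors, which held for 2.29% of tested genes as higher, 2.34% as lower and 4.63% in all. By limma on log2(FPKM + 1), adjusted over all genes tested, 0 of the 10 members were called at 0.05, where 0.0% of tested genes were called. With the replicate number as a block, 0 members were called as well, where 0.0184% of tested genes were called, 1 as higher and 1 as lower (0.00921% each). At an unadjusted limma p below 0.05, Ccng1 was the only member without the block, where 1.13% of tested genes passed, 0.673% as higher and 0.461% as lower. With the block 4 members passed, Ccng1, Btg1 and Cdkn1a as higher and Gadd45g as lower, where 20.4% of tested genes passed, 9.77% as higher and 10.7% as lower. The median log2 fold change was 0.07 over the members and -0.01 over all genes tested.

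**Figure D1:**
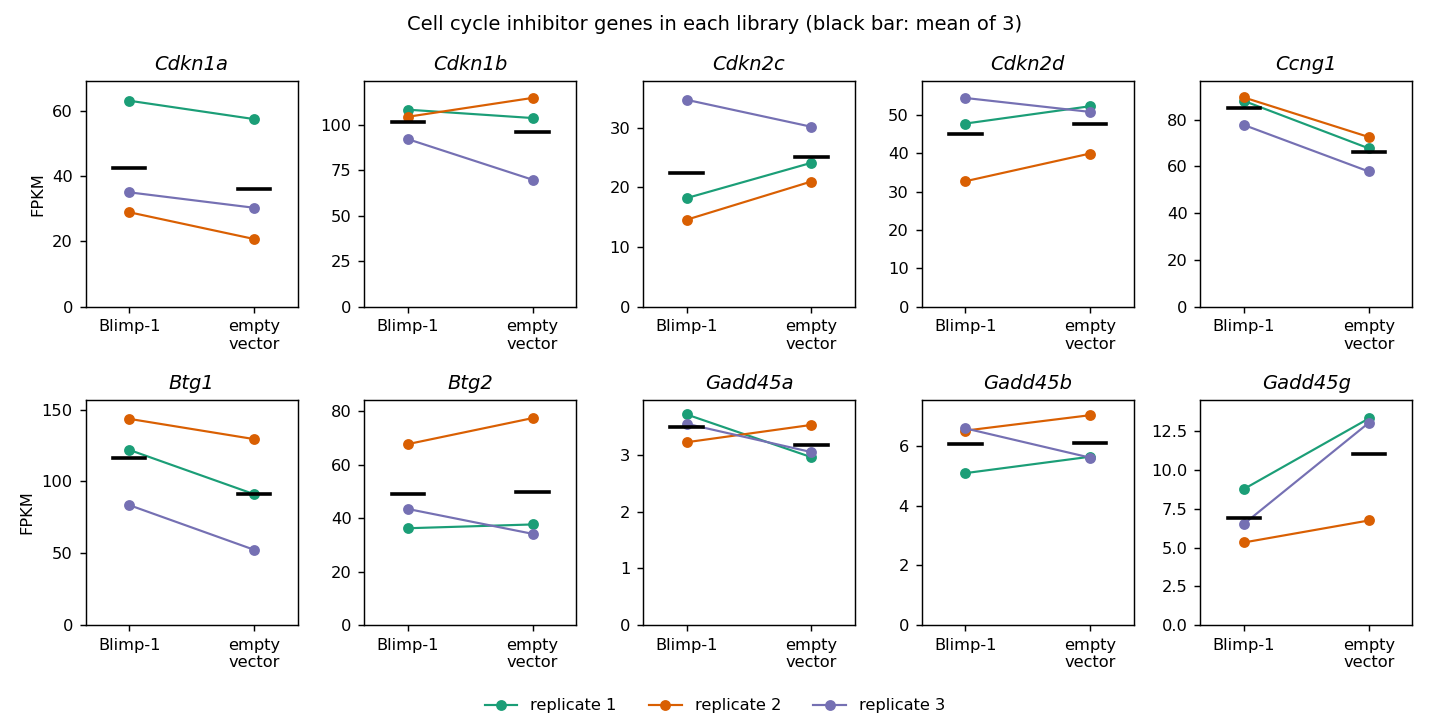
FPKM of each member in the 6 libraries. Each panel is a gene, points are libraries with Blimp-1 at left and the empty vector at right, lines join libraries of the same replicate number, and black bars are means of 3. The Ccng1 values with Blimp-1, 77.7 to 89.45 FPKM, all lie above those with the empty vector, 57.8 to 72.5 FPKM, and the values of every other member overlap.

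**Figure D2:**
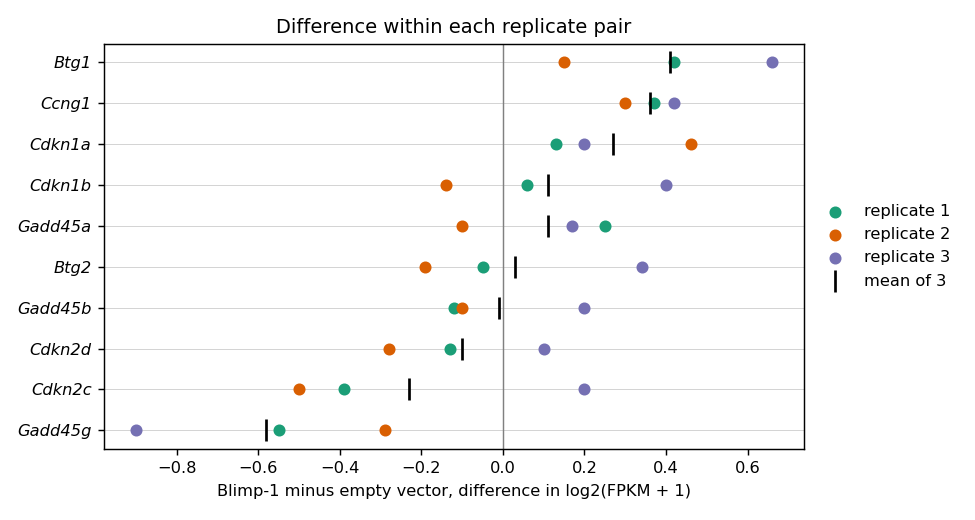
Difference in log2(FPKM + 1), Blimp-1 minus empty vector, within each of the 3 replicate pairs, with the mean of 3 as a black mark. The points of Btg1, Ccng1 and Cdkn1a lie right of 0 and those of Gadd45g lie left of 0.

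Ccng1 gave the most even difference over the 3 pairs. It was at 88.0, 89.45 and 77.7 FPKM in Blimp-1 replicates 1 to 3, against 67.7, 72.5 and 57.8 FPKM with the empty vector. All 3 Blimp-1 libraries were higher than any empty vector library. The means were 85.0 ± 6.41 FPKM with Blimp-1 and 66.0 ± 7.52 FPKM with the empty vector (SD, n = 3 each), a ratio of 1.29. The log2 fold change was 0.36 (SE 0.13), with differences of 0.37, 0.30 and 0.42 in pairs 1 to 3. It did not pass over all genes, with a limma adjusted p of 0.998 without the block and 0.144 with it (SE 0.06). An estimated 3463 reads or more per library lay behind these values. Over 20 alternative settings the log2 fold change of Ccng1 ran from 0.27 to 0.43, and the lowest value was that without empty vector replicate 3.

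Btg1 was the most abundant member with Blimp-1. It was at 122, 144 and 83.5 FPKM in Blimp-1 replicates 1 to 3, against 91.2, 129.5 and 52.4 FPKM with the empty vector. The vectors overlapped: both replicate 2 libraries were high and both replicate 3 libraries were low. Within pairs the Blimp-1 library was the higher each time, by log2 differences of 0.42, 0.15 and 0.66. The means were 116 ± 30.45 FPKM with Blimp-1 and 91.0 ± 38.5 FPKM with the empty vector (SD, n = 3 each), and the log2 fold change was 0.41 (SE 0.34; limma adjusted p = 0.998). With the block its SE was 0.11 and its limma adjusted p was 0.157. Without empty vector replicate 3 alone, which leaves the low Blimp-1 replicate 3 with no partner, the log2 fold change of Btg1 was 0.06 in the fit without the block, and without empty vector replicate 2 it was 0.71. With pair 3 left out whole, in the fit with the block, it was 0.28. Btg2, its closest relative among the members, showed no such direction. It was at 36.2, 67.7 and 43.4 FPKM with Blimp-1 and at 37.65, 77.5 and 34.1 FPKM with the empty vector, with pair differences of -0.05, -0.19 and 0.34. Replicate 2 was again the highest pair, and the vectors overlapped almost fully. The log2 fold change of Btg2 was 0.03 (SE 0.35).

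Cdkn1a encodes p21, the inhibitor through which p53 halts the cycle. Its gene total was 63.1, 28.9 and 34.99 FPKM in Blimp-1 replicates 1 to 3, against 57.4, 20.7 and 30.3 FPKM with the empty vector. Both replicate 1 libraries were far above the rest, and within each pair the Blimp-1 library was the higher, by log2 differences of 0.13, 0.46 and 0.20. The means were 42.3 ± 18.2 FPKM with Blimp-1 and 36.1 ± 19.1 FPKM with the empty vector (SD, n = 3 each). The log2 fold change was 0.27, with an SE of 0.41 and a limma adjusted p of 0.998 without the block, and an SE of 0.09 and a limma adjusted p of 0.187 with it. Leaving out either Blimp-1 replicate 1 or empty vector replicate 2 turned it to -0.06 in the fit without the block, in which the partner library stays. In the blocked fits with a whole pair left out it was 0.33 without pair 1, 0.17 without pair 2 and 0.30 without pair 3. This is the only member with 2 transcripts in the table, and they varied unequally. NM_007669 was at 55.8, 22.2 and 29.7 FPKM with Blimp-1 and at 51.1, 15.2 and 25.2 FPKM with the empty vector, a 3.67-fold range over the 6 libraries. NM_001111099, which starts upstream, was at 7.24, 6.70 and 5.26 FPKM with Blimp-1 and at 6.33, 5.49 and 5.04 FPKM with the empty vector, a 1.44-fold range. Both transcripts were higher with Blimp-1 in 3 of 3 pairs. The upstream transcript made up 11.5%, 23.2% and 15.0% of the gene's FPKM with Blimp-1 and 11.02%, 26.5% and 16.7% with the empty vector, so its share was least where the total was highest, in both replicate 1 libraries.

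**Figure D3:**
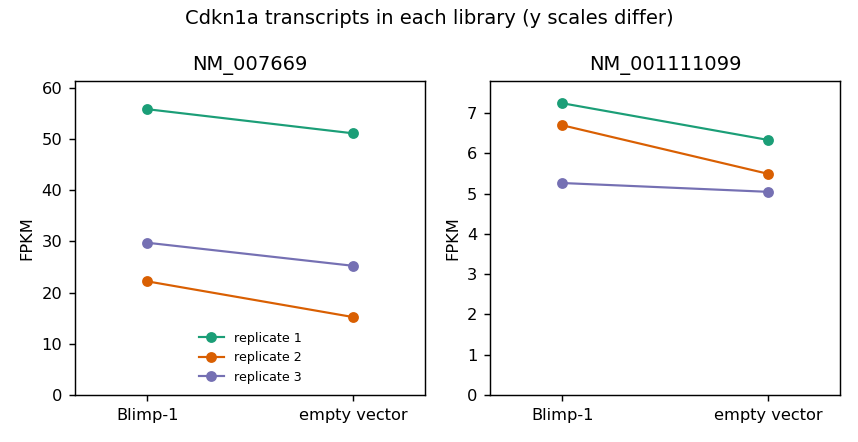
FPKM of the 2 Cdkn1a transcripts in each library, Blimp-1 at left and the empty vector at right of each panel, with lines joining libraries of the same replicate number. The y scales differ between the panels: NM_007669 spans 15.2 to 55.8 FPKM and NM_001111099 spans 5.04 to 7.24 FPKM.

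Promoter sequences are shown for the 4 members whose pairs all pointed the same way, Ccng1, Btg1, Cdkn1a and Gadd45g. Each is the 250 bases before the RefSeq start site, on GRCm38.p6, 5′ to 3′ on the gene's own strand. For Cdkn1a both starts are given, since its transcripts begin at different sites. All 10 members matched the RefSeq promoter table, with 12 promoters in all. Capitals mark matches, on either strand, to a fixed set of motifs: the CCAAT box, the TATA box with the letters TATAAA, the FoxO site GTAAACA, the AP-1 site TGANTCA, the CRE site TGACGTCA, AGNGAAAG (a core of the Blimp-1 site), the NF-kB site and the p53 consensus of 2 adjacent half-sites. No marked matches overlapped each other. The Ccng1 window is chr11:40755287-40755536, minus strand, that of Btg1 is chr10:96616751-96617000, plus strand, that of Gadd45g is chr13:51846425-51846674, plus strand, and those of Cdkn1a are chr17:29090729-29090978, plus strand, for NM_001111099 and chr17:29093519-29093768, plus strand, for NM_007669.
Ccng1: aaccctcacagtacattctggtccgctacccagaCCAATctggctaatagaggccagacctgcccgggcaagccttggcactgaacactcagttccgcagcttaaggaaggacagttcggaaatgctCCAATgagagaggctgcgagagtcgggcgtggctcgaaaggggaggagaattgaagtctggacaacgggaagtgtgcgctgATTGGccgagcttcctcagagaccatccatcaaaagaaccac
Btg1: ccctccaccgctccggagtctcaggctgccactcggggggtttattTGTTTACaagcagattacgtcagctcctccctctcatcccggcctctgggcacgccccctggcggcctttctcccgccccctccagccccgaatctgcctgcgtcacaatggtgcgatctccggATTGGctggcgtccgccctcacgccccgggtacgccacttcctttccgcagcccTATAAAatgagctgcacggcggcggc
Gadd45g: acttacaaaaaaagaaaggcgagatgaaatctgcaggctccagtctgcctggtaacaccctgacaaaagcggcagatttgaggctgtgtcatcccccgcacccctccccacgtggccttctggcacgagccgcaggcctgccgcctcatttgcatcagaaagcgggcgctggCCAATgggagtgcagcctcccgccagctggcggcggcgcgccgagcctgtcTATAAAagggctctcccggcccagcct
Cdkn1a upstream start: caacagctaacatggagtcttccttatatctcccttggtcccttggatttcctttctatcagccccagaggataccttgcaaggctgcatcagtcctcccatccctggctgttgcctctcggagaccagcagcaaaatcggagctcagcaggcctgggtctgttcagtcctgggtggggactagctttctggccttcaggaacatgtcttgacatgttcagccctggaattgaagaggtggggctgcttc
Cdkn1a main start: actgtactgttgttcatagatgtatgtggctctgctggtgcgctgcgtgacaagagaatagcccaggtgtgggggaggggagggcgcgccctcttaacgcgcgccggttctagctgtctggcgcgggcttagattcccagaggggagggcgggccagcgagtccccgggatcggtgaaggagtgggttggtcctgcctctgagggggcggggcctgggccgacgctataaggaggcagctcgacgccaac

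The Ccng1 window held 3 CCAAT matches, at 216, 123 and 42 bases before the start site. The Btg1 window held a FoxO match at 204 bases, a CCAAT match at 80 bases and a TATAAA match at 26 bases before the start site. The Gadd45g window held a CCAAT match at 78 bases and a TATAAA match at 27 bases, a pair at like positions to those of Btg1. Neither Cdkn1a window held an exact match to any of these motifs, and no mismatch was allowed. The stretch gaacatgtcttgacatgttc in the upstream Cdkn1a window differs from the p53 consensus in 1 letter. The share of all promoters with such a near match was not counted. Of the 12 member promoters 8 held CCAAT, against 33.8% of the 32851 promoters in the table, and 3 held TATAAA, against 12.4%. AGNGAAAG was in 0 of the 12, against 7.3% of all promoters, and AP-1 in 0 against 6.75%. NF-kB was in 0 against 0.356% and the p53 consensus in 0 against 0.00913%. Exact matches to these last motifs are rare, in 117 and 3 of the 32851 promoters. Finding 0 of them in 12 promoters therefore says nothing about the members. FoxO was in 1 of the 12, that of Btg1, against 3.17%, and CRE in 1, that of Btg2, against 1.55%. These matches describe letters in the window and not binding.

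Cdkn1b encodes p27, the inhibitor that is abundant in resting T cells. It was at 108, 104.5 and 92.2 FPKM in Blimp-1 replicates 1 to 3, against 104, 115 and 69.8 FPKM with the empty vector. Empty vector replicate 3 was the lowest library, and the other 5 lay within 92.2 to 115 FPKM. The means were 102 ± 8.47 FPKM with Blimp-1 and 96.2 ± 23.5 FPKM with the empty vector (SD, n = 3 each), and the log2 fold change was 0.11 (SE 0.20). The pair differences were 0.06, -0.14 and 0.40, and the log2 fold change was -0.11 without empty vector replicate 3 alone and -0.04 in the blocked fit without pair 3.

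The INK4 genes had lower values with Blimp-1 in pairs 1 and 2 and higher values in pair 3. Cdkn2c, which encodes p18, was at 18.2, 14.6 and 34.7 FPKM in Blimp-1 replicates 1 to 3, against 24.1, 21.0 and 30.2 FPKM with the empty vector. Pairs 1 and 2 were lower with Blimp-1, by log2 differences of -0.39 and -0.50, and pair 3 was higher, by 0.20. Its log2 fold change was -0.23 (SE 0.31; limma adjusted p = 0.998, and 0.395 with the block). Cdkn2d, which encodes p19 of the INK4 family, was at 47.8, 32.7 and 54.5 FPKM with Blimp-1 and at 52.3, 39.95 and 50.8 FPKM with the empty vector. It had the same pattern of signs, with pair differences of -0.13, -0.28 and 0.10, and its log2 fold change was -0.10 (SE 0.21). The table also lists a further placement of the Cdkn2d transcript with no symbol, at 43.8, 30.3 and 49.8 FPKM with Blimp-1 and at 48.2, 36.75 and 47.1 FPKM with the empty vector. It was left out by the rule that chose the members. The level of Cdkn2d is therefore uncertain, since reads may have been divided between the placements. With both placements summed the log2 fold change was -0.11.

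Gadd45g had the largest difference of the members. It was at 8.78, 5.33 and 6.53 FPKM in Blimp-1 replicates 1 to 3, against 13.3, 6.75 and 13.05 FPKM with the empty vector. Replicates 1 and 3 were high with the empty vector and lower with Blimp-1, while replicate 2 was low with both vectors, so that the groups overlapped. The means were 6.88 ± 1.75 FPKM with Blimp-1 and 11.04 ± 3.72 FPKM with the empty vector (SD, n = 3 each), a ratio of 0.623. The log2 fold change was -0.58 (SE 0.28), with pair differences of -0.55, -0.29 and -0.90. The limma adjusted p was 0.998 without the block and 0.146 with it (SE 0.12). About 234 to 397 reads per library lay behind Gadd45g, by the estimated depth. Gadd45a was the lowest member and varied least. It was at 3.72, 3.23 and 3.55 FPKM with Blimp-1 and at 2.96, 3.53 and 3.05 FPKM with the empty vector, for a log2 fold change of 0.11 (SE 0.13). Its values rest on an estimated 64 to 192 reads per library. Gadd45b was at 5.09, 6.52 and 6.59 FPKM with Blimp-1 and at 5.64, 7.04 and 5.61 FPKM with the empty vector. Its pair differences were -0.12, -0.10 and 0.20, and its log2 fold change was -0.01 (SE 0.15).

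The levels formed nearly the same order with both vectors. With Blimp-1, Btg1 and Cdkn1b were highest and overlapped each other, followed by Ccng1. The range of Ccng1, 77.7 to 89.45 FPKM, overlapped that of Btg1, 83.5 to 143.6 FPKM. It overlapped neither Cdkn1b just above it nor Btg2 just below it. With the empty vector Cdkn1b and Btg1 changed places, and all neighbours from Cdkn1b down to Cdkn2c overlapped. Btg2, Cdkn2d, Cdkn1a and Cdkn2c followed in that order with each vector, each overlapping the next. Cdkn2c lay apart from Gadd45g, and Gadd45b lay apart from Gadd45a, with both vectors, while Gadd45g and Gadd45b overlapped. FPKM is per length, so these levels can be set side by side only roughly, with the reserve given for Cdkn2d. Whether reads were assigned equally well to each member was not tested.

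The range of the 3 pair means was larger than the size of the log2 fold change for 8 of the 10 members. The exceptions were Ccng1 and Gadd45a. A range of 3 values and a mean difference are unlike measures. The share over all genes tested was not counted, so whether this is particular to the members is not known. The mean of a pair spanned 1.26 on the log2 scale over the 3 pairs for Cdkn1a, 1.03 for Btg1, 0.95 for Btg2, 0.85 for Cdkn2c and 0.76 for Gadd45g, against 0.26 for Ccng1 and 0.03 for Gadd45a. In 7 members the difference in pair 3, which holds the library that stood apart, was above that in both other pairs. Here too the share over all genes tested was not counted. Proliferation markers moved with the replicate number too. Mki67, which encodes a protein of cycling cells, was at 71.1, 66.9 and 131 FPKM in Blimp-1 replicates 1 to 3, against 77.3, 74.5 and 119.5 FPKM with the empty vector. Both replicate 3 libraries were the highest in Mki67 and in Cdkn2c and the lowest in Btg1. The part of cell cycle state in the members' differences was not tested.

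Genes with the profile nearest to a member over the 6 libraries were found for the 5 members that spanned at least 1 on the log2 scale. Likeness was the root mean square difference of log2 values after each gene was centred on its own mean. For Btg1 the nearest was Heca (0.026), at 46.8, 55.3 and 32.9 FPKM with Blimp-1 and 36.3, 49.3 and 19.9 FPKM with the empty vector, followed by Tmem106b (0.077) and Xrn1 (0.083). For Btg2 they were Zfp169 (0.046), Camk1d (0.053) and AA388235 (0.059). For Cdkn1a they were Basp1 (0.055), Atf3 (0.104) and Guca1a (0.122). For Cdkn2c they were Cryl1 (0.083), Knstrn (0.095) and Wdr62 (0.108). For Gadd45g, which had the least close matches, they were Espn (0.165), Prnp (0.180) and Avpi1 (0.183).

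**Figure D4:**
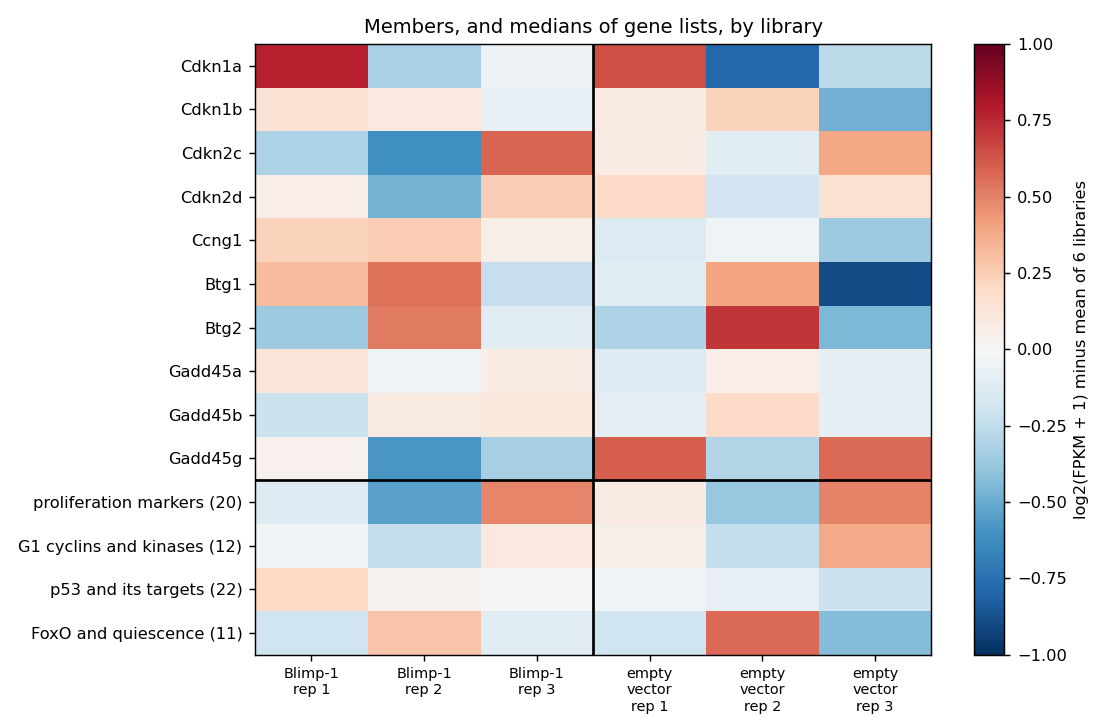
Value of log2(FPKM + 1) minus the mean of the 6 libraries, for the 10 members (top) and for the median of 4 gene lists (bottom), with the number of genes tested in brackets. Columns are Blimp-1 replicates 1 to 3 at left and empty vector replicates 1 to 3 at right. Red is above and blue below the mean. Cdkn1a is red in both replicate 1 libraries, Cdkn2c and the proliferation markers are red in both replicate 3 libraries, and Btg2 is red in both replicate 2 libraries.

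Lists of genes that work with the members were read from the same fits. None of their genes was called over all genes, with or without the block, so the counts below are of pairs that pointed the same way, which 22.9% of tested genes did as higher and 22.8% as lower. Among other genes related to the members by family or only by name, 5 of 10 were tested, 0 were higher and 1 was lower in 3 of 3 pairs. That was Cdkn3, which encodes a phosphatase that acts on CDK2, at 15.4, 13.4 and 29.8 FPKM with Blimp-1 and 18.7, 21.7 and 35.2 FPKM with the empty vector (log2 fold change -0.39, SE 0.33). Cdkn2a and Cdkn2b stayed at 1.56 FPKM or less in each library. Ccng2, the relative of Ccng1, was at 85.1, 75.3 and 85.4 FPKM with Blimp-1 and 88.3, 76.6 and 70.4 FPKM with the empty vector (0.07), with no common direction.

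Of the 12 G1 cyclin, kinase and retinoblastoma family genes tested, 2 were higher and 3 lower in 3 of 3 pairs, with a median log2 fold change of -0.04. Rb1, which encodes the retinoblastoma protein, was at 34.2, 30.3 and 30.1 FPKM with Blimp-1 and 30.0, 26.7 and 21.3 FPKM with the empty vector (0.28, SE 0.15), and its relative Rbl2 had a log2 fold change of 0.23 (SE 0.22). Ccne1, which encodes cyclin E1, was at 6.603, 7.13 and 10.9 FPKM with Blimp-1 and 10.2, 8.49 and 17.5 FPKM with the empty vector (-0.47, SE 0.28). Ccnd3, which encodes cyclin D3, was at 72.4, 56.1 and 78.7 FPKM with Blimp-1 and 93.5, 59.8 and 136 FPKM with the empty vector (-0.41, SE 0.29). Among 8 genes of the ubiquitin ligases that degrade p27 and p21, 0 were higher and 3 lower, with a median of -0.11. The largest of these was Cks1b, the cofactor of SKP2, with a log2 fold change of -0.33 (SE 0.43), and Rbx1 had -0.27 (SE 0.21). Of the 20 proliferation markers 0 were higher and 5 lower, with a median of -0.10, led by Birc5 (-0.40, SE 0.45), a mitotic regulator, and Pcna (-0.35, SE 0.35), the DNA polymerase clamp.

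Cdkn1a, Btg2, Gadd45a and Ccng1 among the members are joined in the p53 pathway by a list of 22 other genes, and many of these had higher values with Blimp-1. Of these members, Cdkn1a and Ccng1 were higher in 3 of 3 pairs, while Btg2 and Gadd45a had mixed signs. Of the 22 genes tested, 12 (54.5%) were higher with Blimp-1 in 3 of 3 pairs, against 22.9% of all genes tested. In the list 1 was lower, against 22.8% of all genes tested, and 9 were mixed. The median log2 fold change of the list was 0.18, against -0.01 over all genes tested. The list was chosen with earlier results of these data known. The list medians were 0.19, 0.14 and 0.18 in pairs 1 to 3. Perp, a membrane protein gene of the p53 death program, was at 11.97, 4.36 and 8.31 FPKM with Blimp-1 and 6.46, 3.13 and 6.01 FPKM with the empty vector (0.53, SE 0.36). Plk2, which encodes a stress-induced polo kinase, was at 6.36, 3.20 and 3.83 FPKM with Blimp-1 and 3.61, 2.06 and 2.67 FPKM with the empty vector (0.51, SE 0.25). In 3 of the 22 genes, chosen here after their values were seen, the vectors did not overlap, all as higher, which held for 2.29% of all genes tested. They were Pmaip1, which encodes the death protein NOXA, at 9.19, 7.45 and 7.53 FPKM with Blimp-1 and 6.29, 5.71 and 5.83 FPKM with the empty vector (0.38), the p53 inhibitor gene Mdm4 (0.15) and the phosphatase gene Ppm1d (0.19). Trp53, which encodes p53 itself, was the gene that was lower in 3 of 3 pairs, at 39.2, 45.5 and 48.8 FPKM with Blimp-1 and 41.8, 47.8 and 55.3 FPKM with the empty vector (-0.11, SE 0.15). The lowest limma adjusted p in the list with the block was 0.144, shared by Perp, Plk2, Pmaip1 and Zmat3, a gene for an RNA-binding zinc finger protein.

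**Figure D5:**
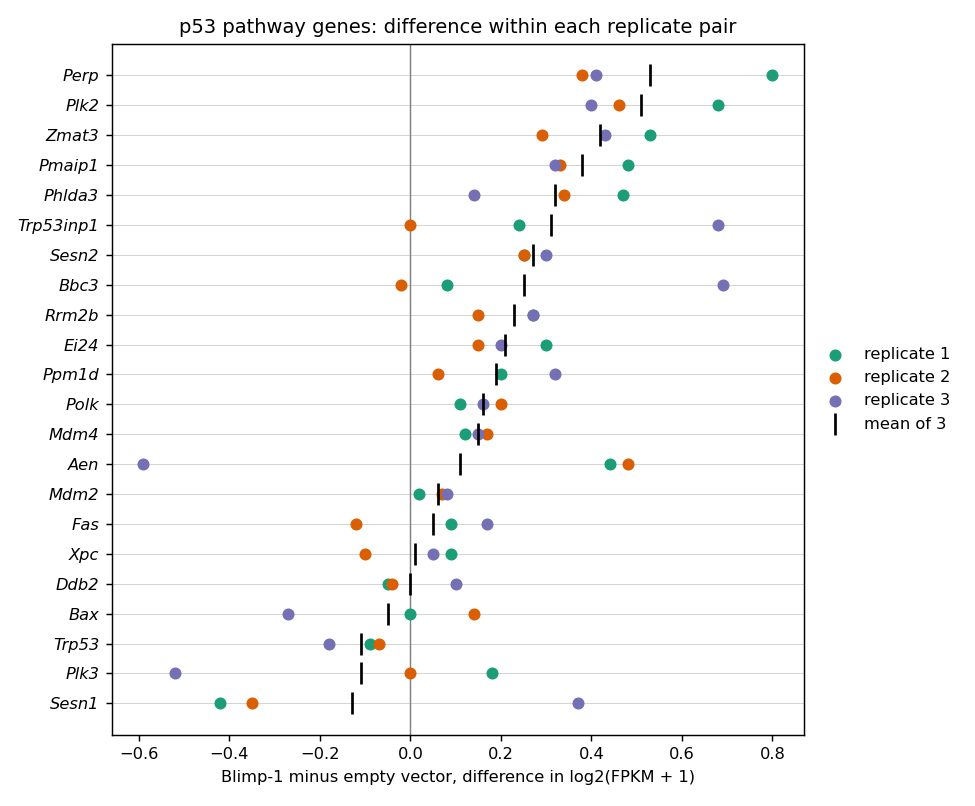
Difference in log2(FPKM + 1), Blimp-1 minus empty vector, within each replicate pair for Trp53 and 21 genes of its pathway, with the mean of 3 as a black mark. All 3 points lie right of 0 for 12 genes, from Mdm2 at a mean of 0.06 to Perp at 0.53, and left of 0 for Trp53.

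The medians of the remaining lists lay between 0.00 and 0.03. Of 11 FoxO and quiescence genes 3 were higher and 1 lower in 3 of 3 pairs (median 0.03): Txnip, an inhibitor of thioredoxin and glucose uptake, had a log2 fold change of 0.40 (SE 0.20), Il7r of 0.54 (SE 0.50, with 1.51 in pair 3 against 0.00 and 0.10 in pairs 1 and 2) and Klf2 of -0.49 (SE 0.29). Of 12 CCR4-NOT and BTG partner genes 4 were higher and 1 lower (median 0.03), among them Cnot6l, a deadenylase gene, with 0.29 (SE 0.25), the scaffold gene Cnot1 with 0.14 (SE 0.12) and Cnot9 with -0.16 (SE 0.16). Of 11 GADD45 partner genes 3 were higher and 3 lower (median 0.00). The named ones were Map2k3, a kinase gene upstream of p38, with 0.10 (SE 0.15), Mapk14, the gene of p38 alpha, with 0.08 (SE 0.11), Cdk1 with -0.22 (SE 0.43) and Pcna, given above. Map3k4, the gene of MEKK4, was at 8.77, 9.23 and 8.24 FPKM with Blimp-1 and 8.04, 8.31 and 8.67 FPKM with the empty vector. Of 7 cyclin G partner genes 0 were higher and 1 lower (median 0.01), Ppp2r5b, a regulatory subunit of protein phosphatase 2A (-0.25, SE 0.17).

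The blocked fit was also run with each pair left out in turn, so that 4 libraries remained, with 1 degree of freedom for the residuals. Limma adds prior degrees of freedom borrowed over all genes. Their median was 17.7 without pair 3, 5.22 without pair 1, 6.57 without pair 2 and 3.65 with all pairs. The p-values without pair 3 therefore rest mostly on variance borrowed from other genes. Without pair 3, which holds the empty vector library that stood apart, the blocked fit called 5 of the 10 members, where 11.1% of tested genes were called, 4.93% as higher and 6.14% as lower. Ccng1 (log2 fold change 0.34, limma adjusted p = 0.00399), Btg1 (0.28, limma adjusted p = 0.0168) and Cdkn1a (0.30, limma adjusted p = 0.023) were called as higher. Cdkn2c (-0.44, limma adjusted p = 0.00103) and Gadd45g (-0.42, limma adjusted p = 0.00379) were called as lower. No member was called in the blocked fits without replicate 1 or without replicate 2. Cdkn2c went against this direction in the pair that was left out, while the other 4 had the same direction there.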

How the data were processed

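Per the labels' protocols, each RNA-seq library started from 2 ug of RNA and went through a TruSeq kit and 50 sequencing cycles. The authors deposited FPKM values for 29868 RefSeq transcripts, and per the submitters' processing notes the tools were Partek 6.6, Cufflinks 2.2 and CASAVA 1.8.2, with mm9 as the genome, and no role or order is stated. Not given in the sources used here: the aligner, the annotation release, any filter and the strand setting. Reads of overlapping antisense genes therefore cannot be told apart. Transcripts were named through RefSeq (GRCm38.p6, names only): 28736 by accession, 348 by symbol, 192 kept the deposited symbol and 11 had none. A further 581 rows, second placements of an accession with no symbol, were left out, as the rule for the members asks. FPKM were summed per gene. A gene was tested where 3 of the 6 libraries reached 1 FPKM, which left 10854 genes. The values, as log2(FPKM + 1), went into limma 3.58.1 (R 4.3.3) with only the vector as a term and the trend option on. Its two-sided p-values were adjusted by Benjamini-Hochberg, with calls at 0.05. Because of the added 1, a fold change is understated for a low gene. The fit was also run on simulated data, where only the median error of the log2 fold changes had to stay under a limit. That run bears on no call made here. All 10 members passed the filter, and 0 were at 0 in any library.

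The replicate numbers, shared by both vectors, were taken to pair the libraries. The reason was that deviations of same-numbered libraries from their vector's mean correlated at 0.79, 0.81 and 0.70. Different numbers gave -0.53 to -0.24, but centring each vector on its own mean pushes these values to the negative. That contrast is therefore partly built in. Depth was estimated from the FPKM of single reads on transcripts of known length. It is approximate, as are the read numbers from it. Alternatives were 16 chosen at the outset and 4 added after the values were seen (the block with another scaling, with another pseudocount and with second placements, and second placements alone). The members, the gene lists and the tests were chosen with earlier results of these data known. Named genes are all members, Prdm1, and from each list up to 2 genes with the largest positive and 2 with the largest negative difference among those with the same sign in 3 of 3 pairs, any list gene called, and the 3 genes nearest in profile to each member that spans at least 1 on the log2 scale. Others are named for contrast or as relatives and were chosen after their values were seen.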

Additional observations from a re-analysis of the deposited data

How the results depend on the processing

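The direction of Ccng1, Btg1 and Gadd45g was kept in each of the 20 alternatives, and that of Gadd45a in the 19 that tested it. The other 6 members changed sign at least once. When a library or a pair was left out, log2 fold changes ran from 0.27 to 0.43 for Ccng1, 0.06 to 0.71 for Btg1 (lowest without empty vector replicate 3 and highest without empty vector replicate 2), -0.87 to -0.42 for Gadd45g (lowest without empty vector replicate 2 and highest in the blocked fit without pair 3), 0.03 to 0.21 for Gadd45a (lowest and highest in the blocked fits without pair 1 and without pair 2), -0.06 to 0.65 for Cdkn1a, -0.11 to 0.25 for Cdkn1b, -0.58 to 0.02 for Cdkn2c, -0.25 to 0.10 for Cdkn2d, -0.22 to 0.40 for Btg2 and -0.11 to 0.10 for Gadd45b. In the blocked fits Cdkn1b had -0.04 and Btg2 -0.12 without pair 3, and Gadd45b had 0.05 without pair 1 and 0.04 without pair 2. With median-ratio scaling Gadd45b had 0.00, with and without the replicate block. Over all genes 0 were called in either direction by limma, with 123 at an unadjusted p below 0.05. It called 1 as higher with median-ratio scaling and without empty vector replicate 2. With the replicate block it called 1 as higher and 1 as lower, likewise with the block and median-ratio scaling, a pseudocount of 0.1 or second placements summed in. With a library or a pair left out the calls ran from 0 to 535 higher and from 0 to 666 lower over all genes, and from 0 to 3 higher and 0 to 2 lower among the members, the highest counts being those of the blocked fit without pair 3. Without pair 1 that fit called 1 higher and 2 lower, and without pair 2 it called 7 higher and 19 lower. The cause was not tested. The replicate block changed no call of a member. With 3 libraries per vector, and Gadd45a at an estimated 64 reads in its lowest library, small differences in the low members could not be resolved.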

Other observations

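Btg3, another gene of the BTG family, could not be compared, and it was singled out after its values were seen. It was listed at 17.8, 0.000246 and 0.000344 FPKM in Blimp-1 replicates 1 to 3 and at 19.0, 0.000291 and 0.00106 FPKM with the empty vector. The transcribed pseudogene Gm7334 took the opposite course, at 7.13, 14.2 and 16.6 FPKM with Blimp-1 and at 0.00881, 13.2 and 16.8 FPKM with the empty vector. Their sum was more even, at 24.9, 14.2 and 16.6 FPKM with Blimp-1 and at 19.0, 13.2 and 16.8 FPKM with the empty vector. Whether the 2 sequences share reads was not tested.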
